A study of Mus musculus with 2 samples.

Results

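Alveolar type 1 cells are the broad, very thin epithelial cells that line most of the gas-exchange surface of the lung, and 10 genes that mark them are described here: Ager, Aqp5, Pdpn, Rtkn2, Clic5, Emp2, Akap5, Spock2, Igfbp2 and Cav1. The set was chosen by gene name, with earlier results of these arrays known, and every probe set annotated to one of these genes alone was taken. This gave 19 probe sets for 10 of the 18193 genes that had a probe set annotated to that gene alone. The RNA came from the whole lungs of C57BL/6 mice aged 6 to 8 weeks, taken 19 days after 500000 Lewis lung carcinoma (LLC) cells in 200 µL had been injected into a tail vein. One group of mice had received LLC cells that overexpressed TDAG8, a proton-sensing receptor encoded by Gpr65, and the other had received LLC cells transfected with the vector. All mice therefore carried LLC cells, and lungs without tumour cells were not analysed here. Each group was represented by the pooled RNA of 10 mice on 1 Affymetrix array, so the study held 2 arrays, with no replicate, no error on a single value and no test. Differences below describe these 2 pools, and their precision is limited by that number of arrays.

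Type 1 cells share their basement membrane with capillary endothelium, and their flat shape gives gases a short path. They arise from the same progenitors as the cuboidal alveolar type 2 cells, which make surfactant and can renew type 1 cells after injury. Their known genes serve water and ion movement, membrane invagination, cell shape and attachment, and several are also used by other lung cells, above all Cav1 in endothelium and Pdpn in lymphatic endothelium, mesothelium and some fibroblasts.

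Intensities are given as deposited, on a linear scale on which each array had a trimmed mean of 100. A value under the 50th percentile of its array, 24.3 on the TDAG8 array and 26.3 on the control array, was treated as lying at that floor. The measure of change was the log2 ratio of the TDAG8 array over the control array, centred on the median of the 11044 genes that exceeded both floors. Gpr65 itself had an intensity of 73.9 on the TDAG8 array and 32.3 on the control array, 2.38-fold higher, but whether this mouse probe set reads the transfected sequence is unknown. Actb, a cytoskeletal reference gene, had intensities of 6035 and 6667 on the TDAG8 and control arrays, a log2 ratio of -0.09. A second, much dimmer Actb probe set read 136.9 and 177.8 on the TDAG8 and control arrays, a log2 ratio of -0.319.

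All 10 type 1 genes had lower intensities in lungs with TDAG8-overexpressing cells than in lungs with vector control cells, by a moderate amount. Their log2 ratios, each from the brightest probe set of the gene, ran from -0.81 for Clic5 to -0.28 for Cav1 with a median of -0.54, which is 1.46-fold lower, whereas the median over all genes above the floor on at least 1 array was 0.00. Ratios below 0 were found for 10 of 10 type 1 genes, against a background of 50.1% of the 11949 genes measured. A log2 ratio of -0.32 or lower was found for 9 of 10, against 25.7% of all genes, and at least 1.5-fold lower were 4 of 10, against 12.1%. No type 1 gene was at least 2-fold lower by its brightest probe set, where the background was 1.19%. The genes were chosen with earlier results of these arrays known, so these counts are not independent evidence of direction. In bulk RNA of this kind, fewer type 1 cells, less RNA per type 1 cell and more RNA from other cells cannot be told apart.

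The probe sets gave the same direction throughout. All 19 lay above the floor on both arrays, the dimmest at 2.04 times the floor of the TDAG8 array, so no ratio was set by the floor. All 19 had ratios below 0, against 50.6% of the 20926 probe sets measured, and 17 were at -0.32 or lower, against 24.8%. At least 1.5-fold lower were 12 of 19, against 11.2%, and at least 2-fold lower were 2 of 19, against 1.13%. Probe sets of one gene read RNA of the same 2 pools, so they check the probes and not the animals. Over the 4775 genes with at least 2 such probe sets, the pooled SD of the log2 ratio between probe sets of a gene was 0.27.

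**Figure D1:**
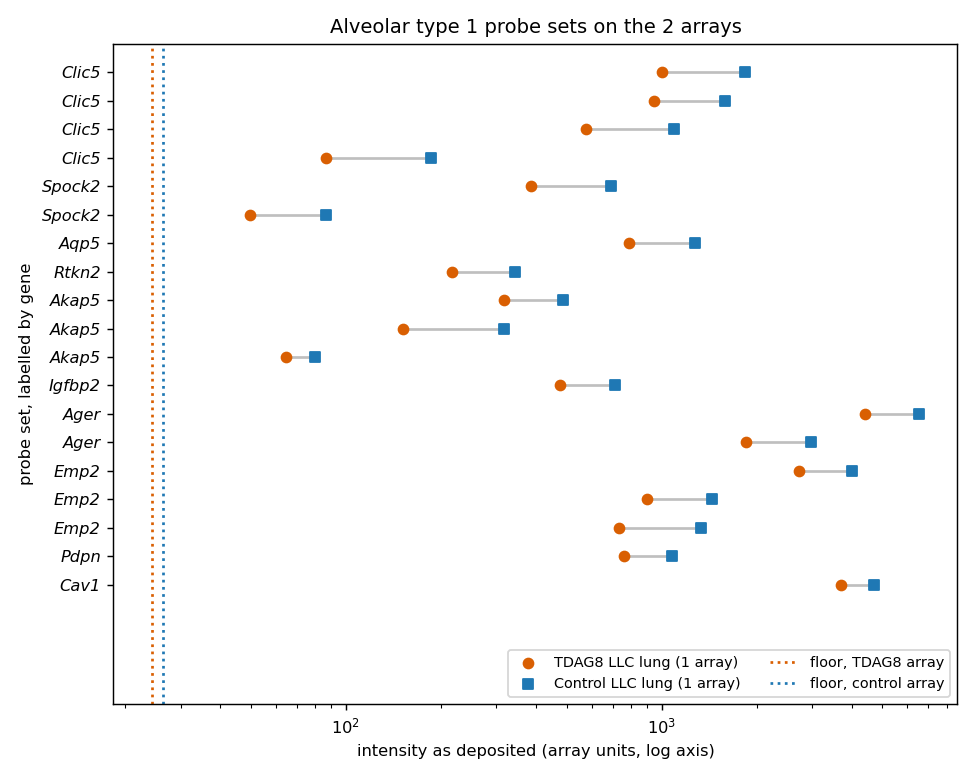
Intensity of each of the 19 alveolar type 1 probe sets on the TDAG8 array (orange circles) and the control array (blue squares), on a log axis, 1 pooled RNA per array; dotted lines mark the floors of 24.3 and 26.3. The orange circle lies left of the blue square in every row, and every point lies right of the floors.

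Of the membrane glycoproteins, Ager encodes the receptor for advanced glycation end products, a multiligand receptor that is far more abundant in type 1 cells than elsewhere and sits on their basal side. Its brighter probe set, 1441958_s_at, read 4397 on the TDAG8 array and 6541 on the control array, a log2 ratio of -0.51. Its second probe set, 1420428_at, read 1850 on the TDAG8 array and 2983 on the control array, a log2 ratio of -0.63. The intensity in lungs with TDAG8-overexpressing cells was thus 67.2% and 62.0% of that in control lungs by the 2 probe sets, before centring. Pdpn encodes podoplanin (also known as T1-alpha), a mucin-like protein of the apical membrane that links to the cortical actin cytoskeleton. Its only probe set read 759.7 on the TDAG8 array and 1083 on the control array, a log2 ratio of -0.45, and 18.0% of all genes above the floor on both arrays had a ratio as low or lower.

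Among the genes of water and ion handling, Aqp5 encodes the water channel of the apical type 1 membrane, which is also present in salivary and airway glands. Its only probe set read 790.6 on the TDAG8 array and 1275 on the control array, a log2 ratio of -0.63 or 1.55-fold lower. Clic5 encodes a chloride intracellular channel protein that associates with ezrin and cortical actin, and it had the lowest ratio of the 10 genes. Its brightest probe set, 1456873_at, read 1006 on the TDAG8 array and 1833 on the control array, a log2 ratio of -0.81 or 1.75-fold lower, and 4.21% of all genes had a ratio as low or lower. The other 3 Clic5 probe sets read 948.5, 575.4 and 86.3 on the TDAG8 array, against 1589, 1092 and 185.6 on the control array. Their log2 ratios were -0.69, -0.87 and -1.05, so all 4 Clic5 probe sets were at least 1.61-fold lower, and the dimmest, 1431261_at, was 2.07-fold lower.

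Cav1 and Emp2 shape the plasma membrane. Cav1 encodes caveolin-1, the coat protein of caveolae, which are dense in type 1 cells and in lung endothelium. Its only probe set, 1449145_a_at, read 3712 on the TDAG8 array and 4704 on the control array, a log2 ratio of -0.28 or 1.22-fold lower, the smallest difference of the 10 genes. Of all genes above the floor on both arrays, 28.1% had a ratio as low or lower, so Cav1 lay within the middle 50 per cent of genes, whose lower end was -0.33. Emp2 encodes a tetraspan membrane protein of the PMP22 family that regulates caveolin and integrin levels. Its brightest probe set, 1433670_at, read 2724 on the TDAG8 array and 4013 on the control array, a log2 ratio of -0.50. The other 2 Emp2 probe sets read 896.8 and 731.8 on the TDAG8 array, against 1440 and 1334 on the control array, and their log2 ratios of -0.62 and -0.81 were lower than that of the brightest.

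Akap5 and Rtkn2 act inside the cell. Akap5 encodes an anchoring protein that holds protein kinase A, calcineurin and protein kinase C near membrane receptors and adenylyl cyclase. Its brightest probe set, 1436142_at, read 316.7 on the TDAG8 array and 486.8 on the control array, a log2 ratio of -0.56. The other Akap5 probe sets lay on either side of it. One, 1431717_at, read 152 on the TDAG8 array and 317.2 on the control array, a log2 ratio of -1.003, and the other, 1447301_at, read 64.5 and 79.8 on the TDAG8 and control arrays, a log2 ratio of -0.25. That range of 0.75 was the widest within any of the 5 genes with several probe sets, against a median range of 0.29 over all genes with several probe sets. Rtkn2 encodes rhotekin 2, a relative of the signalling protein rhotekin. Its only probe set read 216.6 on the TDAG8 array and 343 on the control array, a log2 ratio of -0.60 or 1.52-fold lower.

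Spock2 and Igfbp2 encode secreted proteins. Spock2 encodes testican 2, a proteoglycan of the extracellular matrix, and had the second-lowest ratio. Its brighter probe set, 1435026_at, read 385.7 on the TDAG8 array and 691.3 on the control array, a log2 ratio of -0.78 or 1.72-fold lower, and 4.97% of all genes had a ratio as low or lower. The dimmer probe set, 1450451_at, read 49.6 and 86.4 on the TDAG8 and control arrays, a log2 ratio of -0.74, so the 2 probe sets differed by 0.04. Igfbp2 encodes an insulin-like growth factor binding protein that marks mature type 1 cells in mouse. Its only probe set read 478.4 on the TDAG8 array and 714.6 on the control array, a log2 ratio of -0.52.

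**Figure D2:**
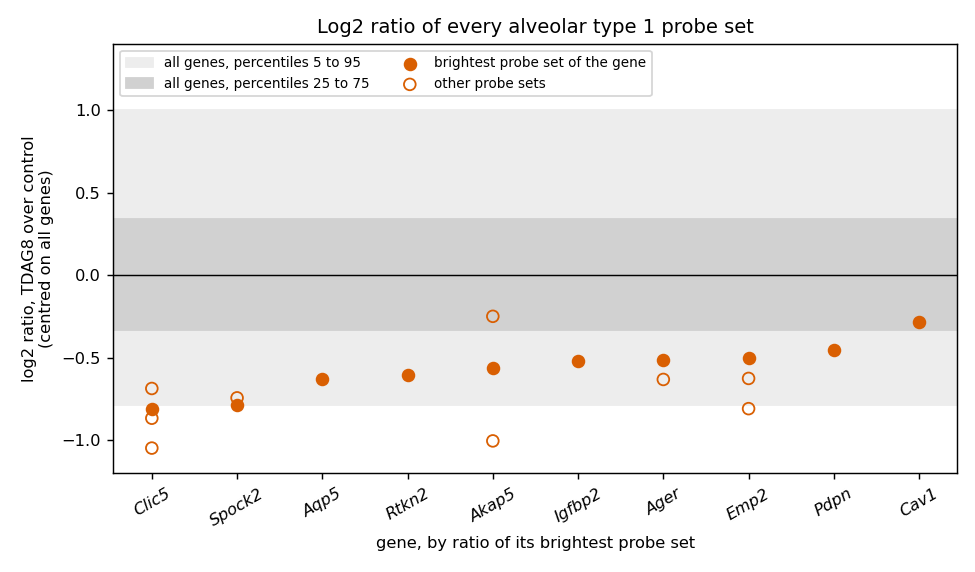
Centred log2 ratio of the TDAG8 array over the control array for every alveolar type 1 probe set, genes ordered by the ratio of the brightest probe set (filled circles; open circles are other probe sets), with grey bands for the middle 50 and 90 per cent of all genes above the floor on both arrays. All 19 points lie below 0, between -1.05 and -0.25, and the order of genes runs from Clic5 at -0.81 to Cav1 at -0.28.

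From low to high the order of the log2 ratios was Clic5, Spock2, Aqp5, Rtkn2, Akap5, Igfbp2, Ager, Emp2, Pdpn and Cav1. No 2 neighbours in this order differed by more than 0.17, which is less than the SD of 0.27 between probe sets of one gene, so the order of neighbours is not resolved. The SD of the 10 ratios was 0.15. The ends of the order, Clic5 and Cav1, differed by 0.52 on the log2 scale, or 1.92 times the SD between probe sets. That SD holds no spread between arrays or animals, so it cannot show whether the ends differ. Rtkn2, Aqp5, Pdpn, Igfbp2 and Cav1 each had 1 probe set and so no second reading.

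A separate list of 16 other genes known from type 1 cells, none of them among the 10, gave a median log2 ratio of -0.63. All 16 had ratios below 0, against 50.1% of all genes, although Pdgfa, at -0.01, turned above 0 under 2 of 8 alternative settings. Of the 16, 12 were at -0.32 or lower, against 25.7%, and 10 were at least 1.5-fold lower, against 12.1%. The brightest probe set of the list was that of Hopx, a homeodomain protein of type 1 cells. It read 3665 on the TDAG8 array and 5137 on the control array, a log2 ratio of -0.43. The lowest ratio was that of Col4a4, a basement membrane collagen chain, at -0.87. Its partner chain Col4a3, at -0.74, read 159.7 on the TDAG8 array and 278.6 on the control array, and a second Col4a3 probe set was at -0.25. This list and the 10 genes were both chosen with earlier results of these arrays known, so neither is independent evidence of direction.

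Genes of other cells of the lung wall gave ratios of similar size, and with 1 array per group no test of a difference from them was possible. The 13 measured alveolar type 2 genes had a median log2 ratio of -0.43, and all lay below 0, against 50.1% of all genes. They ran from Chia1, an acidic chitinase, at -0.74 to the lysozyme gene Lyz1 at -0.09, but another Lyz1 probe set was at -0.71. The Lyz1 probe set at -0.09 read 5883 and 6499 on the TDAG8 and control arrays. Lyz2, counted below among macrophage genes, read 6002 and 6650 on them. Whether that Lyz1 probe set also reads Lyz2 was not tested. The brightest type 2 gene, the surfactant gene Sftpc, was at -0.12. The 12 endothelial genes had a median of -0.75, lower than that of the type 1 genes. All were at -0.32 or lower, against 25.7% of all genes, from Clec14a at -1.07 to Emcn, a capillary and venous sialomucin, at -0.40. The brightest, Plvap, was at -0.89. Cav1, which endothelium also expresses, had a ratio above those of all 12.

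Pdpn is shared with lymphatic endothelium, mesothelium and fibroblasts, and their lists are given beside it. Which cells supplied the Pdpn signal was not tested. The 4 measured lymphatic genes had a median log2 ratio of -0.74, from Lyve1, the brightest, at -0.90 to Flt4 at -0.59, and Prox1 was dimmer than both floors. The middle genes, Reln and Mmrn1, were dim, at 38.5 and 54.4 on the TDAG8 array and 67.7 and 94.2 on the control array. With an offset in place of the floor the lymphatic median was -0.53. The 6 mesothelial genes had a median of -0.54, with the lowest, Krt19, which is also the brightest, at -0.87 and Wt1 at 0.17 from values near the floor. The 10 fibroblast genes had a median of -0.16, with 6 below 0 and 4 above, where 50.1% of all genes lay below 0. The median was 0.04 with only probe sets of the plain suffix, and Col1a2, one of the 6, had a second probe set at 0.08. The lowest fibroblast gene was Postn at -0.61, the highest Lum, a collagen-binding proteoglycan, at 1.14, and the brightest Sparc at -0.34. The 8 genes of lung epithelium in general had a median of -0.61, which rose to -0.40 once a floor of percentile 65 was applied. Epcam was lowest at -0.83, but its second probe set was at -0.14, so that rank depends on the probe set. Nkx2-1, at -0.75, was dim, at 39.8 and 69.5 on the TDAG8 and control arrays, and reached -0.18 among the alternatives. The keratin gene Krt8, the brightest, was the only one above 0, at 0.59.

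Most markers of dividing cells and of macrophages were higher in lungs with TDAG8-overexpressing cells. All 9 measured proliferation genes had a log2 ratio of 0.32 or more, against 26.3% of all genes, and 8 passed 2-fold, against 5.41%. Their median log2 ratio was 2.44, from the replication clamp Pcna, the brightest, at 0.91 to Bub1 at 2.71, and their summed intensity was 5895 on the TDAG8 array and 2036 on the control array. Of the 8 macrophage genes 5 passed 2-fold and the median was 1.17, from Mrc1 at -0.16 to Itgam at 1.73 among those above the floor on both arrays, and with the brightest, Lyz2, at -0.09. Their summed intensity was 8943 on the TDAG8 array and 8754 on the control array, of which Lyz2 alone gave 6002 and 6650. None of the markers of either list was at 0 on both arrays. The 10 type 1 genes summed to 14786 on the TDAG8 array and 21685 on the control array. Such sums weigh the brightest probe sets most and do not measure shares of RNA. What part the RNA of dividing or immune cells had in the lower type 1 values was not tested.

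**Figure D3:**
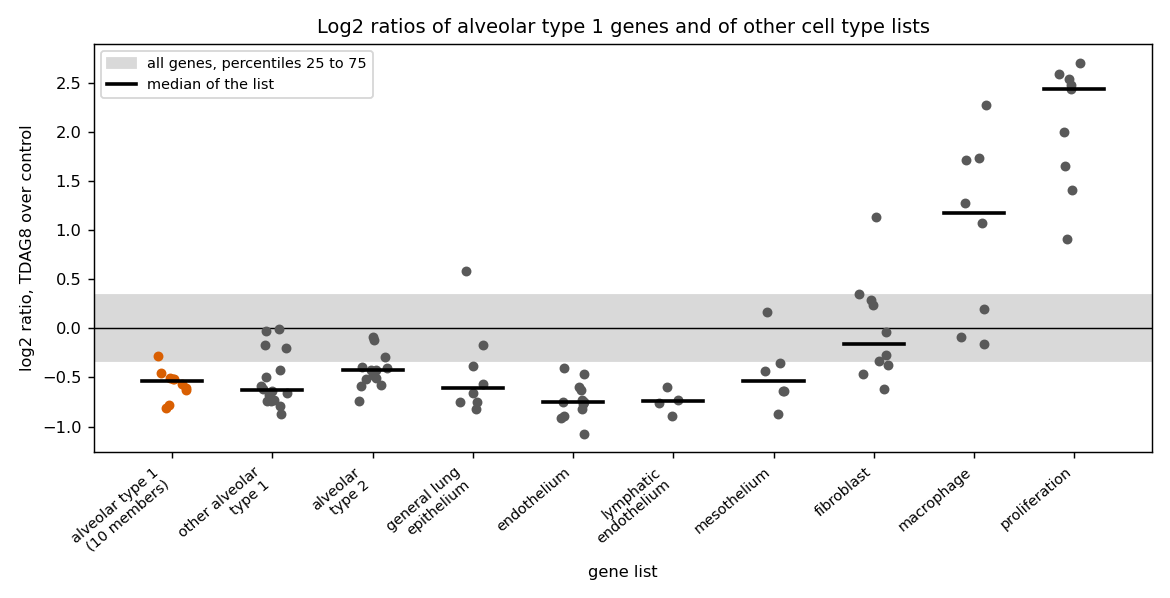
Centred log2 ratio of each measured gene (points) and the median (bar) for the 10 alveolar type 1 genes (orange) and 9 other marker lists (grey), with the middle 50 per cent of all genes as a band; Msr1 and Cldn4 are lower and upper bounds, since each lay below the floor on 1 array. The medians of the type 1, type 2, general epithelial, endothelial, lymphatic and mesothelial lists lie between -0.75 and -0.43, and those of macrophage and proliferation genes at 1.17 and 2.44.

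The closest relatives of the type 1 genes did not share one direction. In the chloride intracellular channel family Clic3, Clic6 and Clic4 had log2 ratios of -0.84, -0.86 and -0.34 beside -0.81 for Clic5, whereas Clic1, a widely expressed member, read 1544 on the TDAG8 array and 940.6 on the control array, 1.71-fold higher. Among the relatives of Emp2, the myelin protein gene Pmp22 was at -0.69, while Emp1 was at 0.20 and Emp3 at 0.78, which is 1.72-fold higher. Rtkn, the relative of Rtkn2, read 118.9 on the TDAG8 array and 91.9 on the control array, a log2 ratio of 0.43 and 1.03 above that of Rtkn2.

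Of the aquaporins, Aqp1, the water channel of endothelium and red cells, read 1422 on the TDAG8 array and 2061 on the control array, a log2 ratio of -0.48. Aqp4, a basolateral water channel of airway epithelium, was at -0.83 from intensities of 32.6 and 60.3 on the TDAG8 and control arrays. Aqp3 was above the floor on the TDAG8 array only, and Aqp8 and Aqp9 lay below it on both. Of the insulin-like growth factor binding proteins, Igfbp5, Igfbp7 and Igfbp6 were at -0.83, -0.62 and -0.60 and Igfbp3 at -0.02, beside -0.52 for Igfbp2, and Igfbp3 lay above 0 under 1 alternative. Igfbp4 read 3421 on the TDAG8 array and 1911 on the control array, 1.86-fold higher, and Igfbp1 was dimmer than both floors. Spock1 and Spock3, the relatives of Spock2, also lay below the floor on both.

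Caveolae need the cavins beside caveolin. Cav2, the partner of Cav1, read 2670 on the TDAG8 array and 3497 on the control array, a log2 ratio of -0.33, but a second, dimmer Cav2 probe set was at 0.16. Cavin1 was at -0.22, Ehd2, an ATPase at the caveolar neck, at -0.52, Cavin2 at -0.58 and Cavin3 at 0.34, which made a median of -0.31 over the 6 measured caveolar genes, Cav1 included. Muscle forms of the coat, Cav3 and Cavin4, lay below the floor on both arrays. Of 9 measured A-kinase anchors, Akap5 included, 7 lay below 0, against 50.1% of all genes, and the median was -0.49. The lowest was Akap13 at -0.88, followed by Akap12 at -0.68, Akap5 at -0.56, Akap11 at -0.52 and Akap7 at -0.49, and the highest was the mitochondrial anchor Akap1 at 0.51. The values for Akap9, Akap10 and Akap8 were -0.29, -0.12 and 0.02, and Akap10 and Akap8 changed sign under 1 alternative each. Of the 3 Akap10 probe sets above the floor, 2 lay above 0, the highest at 0.27, so its direction is not settled.

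**Figure D4:**
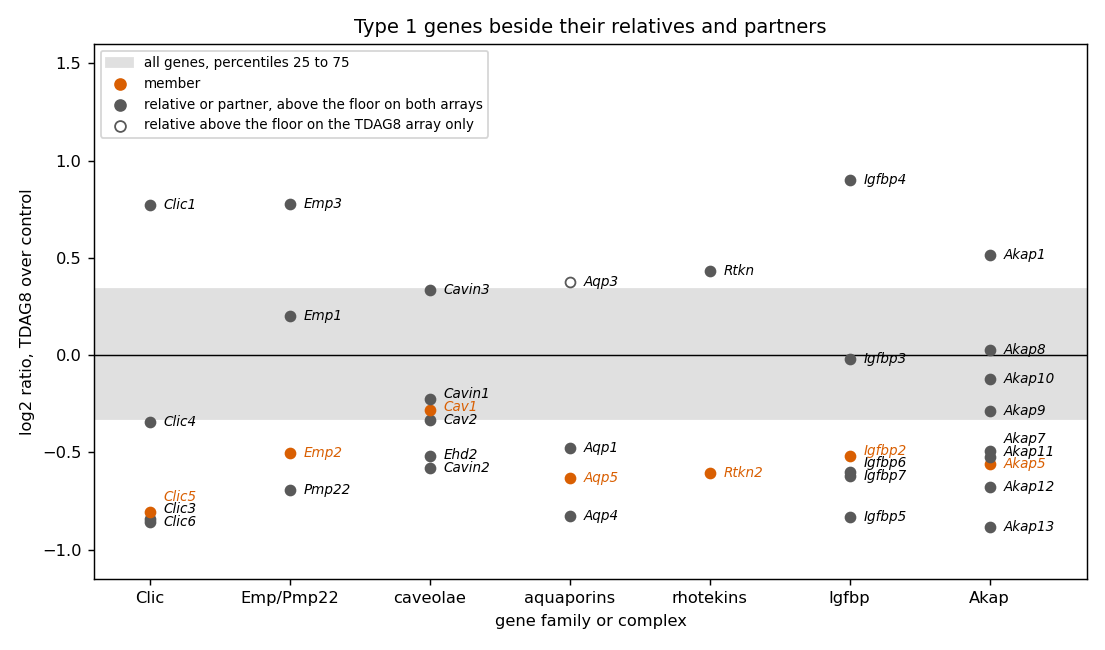
Centred log2 ratio of type 1 genes (orange) beside the relatives or complex partners measured with them (grey; the open circle, Aqp3, is a lower bound), with the middle 50 per cent of all genes as a band. Clic1, Emp3, Rtkn and Igfbp4 lie above 0 at 0.77, 0.78, 0.43 and 0.90, while Clic5, Emp2, Rtkn2 and Igfbp2 lie between -0.81 and -0.50.

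The measured ligands of the Ager receptor were higher or near 0, unlike Ager at -0.51. Another ligand gene, Hmgb1, had no probe set annotated to it alone and was not measured. S100a4, a small calcium-binding protein linked to cell migration, read 3399 on the TDAG8 array and 807.8 on the control array, a log2 ratio of 2.13, and the acute phase gene Saa3 read 460.5 and 116 on the TDAG8 and control arrays, a log2 ratio of 2.05. S100a6 was at 0.86, S100a9 at 0.28 and S100a8 at 0.10, and S100b was dimmer than both floors. Proteins that act with podoplanin were mixed: Clec1b, its receptor on platelets, was at -0.41, Msn at -0.08, Cd9 at 0.12, Ezr at 0.20 and Cd44 at 0.50, beside -0.45 for Pdpn. The cofactors YAP and TAZ and their TEAD partners maintain type 1 identity in mouse. Of 9 such genes 4 lay below 0, against 50.1% of all genes, and the median of 0.04 turned to -0.02 without centring. Wwtr1, which encodes TAZ, read 814.6 on the TDAG8 array and 1186 on the control array, a log2 ratio of -0.48, whereas Yap1 was at 0.24. Of the target genes Ccn2, the brightest of these 9, was the lowest at -0.62, Ccn1 was at -0.08 and Ajuba at 0.06. The DNA-binding partners Tead2, Tead1 and Tead3 were at 0.10, 0.04 and -0.33, with Tead1 below 0 under 1 alternative, and Tead4 was above the floor on the TDAG8 array only.

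Promoter sequences of 9 of the 10 genes, taken from RefSeq (GRCm38.p6, 250 bases before to 50 after the start site), are described because the genes had ratios of one direction. Igfbp2 and Cav1 each had 2 start sites, which made 11 promoters. The promoters of the 2 genes with the lowest ratios and the more upstream promoter of the gene with the highest are shown, with the only motif match among them, CTTGAG in Spock2, in capitals.
Clic5, chr17:44188322-44188621, plus strand: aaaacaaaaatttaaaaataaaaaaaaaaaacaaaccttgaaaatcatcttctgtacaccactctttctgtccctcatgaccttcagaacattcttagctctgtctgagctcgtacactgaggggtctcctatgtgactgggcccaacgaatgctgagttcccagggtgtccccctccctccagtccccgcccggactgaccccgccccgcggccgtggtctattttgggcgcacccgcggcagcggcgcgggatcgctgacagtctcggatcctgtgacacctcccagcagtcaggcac
Spock2, chr10:60106007-60106306, plus strand: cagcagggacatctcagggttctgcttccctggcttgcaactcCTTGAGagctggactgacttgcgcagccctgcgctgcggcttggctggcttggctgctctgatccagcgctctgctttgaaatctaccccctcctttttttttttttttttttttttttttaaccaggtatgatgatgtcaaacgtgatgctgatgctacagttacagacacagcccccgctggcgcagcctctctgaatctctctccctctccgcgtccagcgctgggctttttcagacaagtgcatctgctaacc
Cav1, chr6:17306085-17306384, plus strand: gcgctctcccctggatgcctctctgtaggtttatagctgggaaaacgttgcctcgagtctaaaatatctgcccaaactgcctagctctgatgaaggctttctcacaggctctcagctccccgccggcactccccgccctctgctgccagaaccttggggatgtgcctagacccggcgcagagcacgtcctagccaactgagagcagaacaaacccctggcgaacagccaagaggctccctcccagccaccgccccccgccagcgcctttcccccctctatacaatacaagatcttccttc
These 3 promoters had a GC content of 54.3% for Clic5, 52.3% for Spock2 and 59.3% for Cav1, against a median of 52.7% over 32851 promoters, and held 16, 10 and 13 CpG dinucleotides, against a median of 7.

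Each promoter was searched on both strands for 4 motifs. The TEAD motif GGAATG was in 0 of 11 type 1 promoters and in 14.7% of all promoters. The motif CTCAAG, a core of sites for the lung factor NKX2-1, was in 2 of 11, those of Spock2 and Igfbp2, and in 15.9% of all. The AP-1 motif TGANTCA was in 1 of 11, that of Igfbp2, and in 7.81% of all. The E-box CACGTG was in 3 of 11, those of Aqp5, Igfbp2 and Pdpn, and in 7.15% of all. The matches in these 3 genes are shown in capitals with the bases around them. In the second Igfbp2 stretch the NKX2-1 match CTTGAG and the AP-1 match TGAGTCA overlap.
Aqp5, chr15:99590926-99590961, plus strand, E-box 87 to 82 bases before the start site: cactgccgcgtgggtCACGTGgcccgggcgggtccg
Pdpn, chr4:143299688-143299723, minus strand, E-box 144 to 139 bases before the start site: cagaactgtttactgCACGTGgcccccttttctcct
Igfbp2, chr1:72824323-72824358, plus strand, E-box 142 to 137 bases before the upstream start site: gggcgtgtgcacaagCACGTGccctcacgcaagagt
Igfbp2, chr1:72825331-72825369, plus strand, 41 to 33 bases before the downstream start site: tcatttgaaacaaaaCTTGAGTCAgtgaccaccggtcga
A match shows only that these letters occur in the window. The 3 genes with an E-box had log2 ratios of -0.63 for Aqp5, -0.52 for Igfbp2 and -0.45 for Pdpn, within the range of the genes without one.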

How the data were processed

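The authors deposited 1 linear intensity for each probe set of each array, with no detection calls. Both columns had a mean of 100 once 2% of values were trimmed from each end, the mark of scaling to one target. Per the labels' protocols, 2 µg of total RNA pooled from 10 lungs was turned into biotin-labelled cRNA primed from the poly(A) tail. The image software and its settings were not given in the sources used here.

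Of 45101 probe sets, 64 array controls were set aside. Of the rest, 34945 had 1 gene symbol in the platform annotation, 932 had several and 9160 none; only the first were used, with current symbols from the RefSeq gene table of GRCm38.p6 for 34741. The brightest probe set, by mean log2 intensity, stood for a gene. The floor was the 50th percentile of each array. Log2 ratios were centred by subtracting their median of -0.06. Genes were counted at 1.25-fold, 1.5-fold and 2-fold. There is 1 array per group, so no test was run and no p-value is given. The procedure was tested on simulated data.

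The 10 genes, the 20 lists set beside them, the folds and the alternatives were chosen with earlier results of these arrays known. Named were the 10 genes with every probe set, and from each list of markers the brightest, lowest and highest gene, with all measured relatives and partners of the 10 genes. Exceptions to a count were named after their values were seen. Gapdh has no probe set with a single symbol and is given from array controls only. No genes of like pattern were sought, since 2 arrays give 1 ratio per gene. The values were recomputed under 8 alternatives. Python 3.11.15, pandas 2.3.3, numpy 2.4.6, statsmodels 0.14.6 and matplotlib 3.10.9 were used.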

Additional observations from a re-analysis of the deposited data

How the results depend on the processing

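The 10 type 1 genes were recomputed without centring, after quantile normalization, after loess centring (span 0.3), with floors at the 30th and 65th percentile, with an offset in place of the floor, with each gene's probe sets averaged and with only probe sets of the plain suffix. The last left out Igfbp2 and Cav1, and the other 8 genes were measured. All 78 values so obtained lay below 0, between -0.87 and -0.26, and the median over the genes lay between -0.60 and -0.51. The single probe sets, recomputed under the 6 alternatives that do not choose among them, gave 114 of 114 values below 0, between -1.10 and -0.19. The number of genes at least 1.5-fold lower ranged from 3 with the offset to 6 with the mean over probe sets, against 4. The number at -0.32 or lower was 10 without centring and after quantile normalization, against 9, and none was at least 2-fold lower under any of the 8. Over all genes, the count at least 1.5-fold lower was 1441, against 860 with the offset, and the count at least 2-fold lower was 142, against 31 with the offset, 68 with the higher floor and 345 with the lower floor. Genes at least 2-fold higher numbered 646, against 419 with the higher floor. The share of higher genes among those past 2-fold was 82.0%, against 93.3% with the offset and 71.7% with the lower floor. Of 160 list medians 8 moved by more than 0.27: that of proliferation genes was between 1.87 and 2.02 under 4 alternatives, that of macrophage genes 0.90 with the higher floor, that of testicans -0.42 and that of Ager with its ligands 0.30 with the lower floor, and that of the rhotekins -0.58 once Rtkn was left out. Of the same list medians 4 values changed sign: fibroblast genes to 0.04 with only the plain suffix, the YAP and TEAD genes to -0.02 without centring, and podoplanin with its partners, at 0.02, to -0.04 without centring and -0.02 after quantile normalization. No paired analysis was possible because each group had 1 array. Intensities near the floor, such as those of the dimmer probe sets of Spock2 and Akap5, are the least precise.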

Other observations

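The array's own control probe sets read the 5′ part, the middle and the 3′ part of 2 reference transcripts. For Actb the centred log2 ratios were 0.05, -0.02 and -0.07, and for Gapdh, a glycolytic enzyme, they were 0.92, 1.12 and 0.89. Within each transcript the 3 parts differed by at most 0.23 between the arrays, less than the SD of 0.27 between probe sets of one gene.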
